A study of Homo sapiens with 27 samples.

Results

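AP-1 is the dimeric transcription factor built from proteins of the Fos and Jun families, and the results here concern the 8 genes FOS, FOSB, FOSL1, FOSL2, JUN, JUNB, JUND and BATF3. They were taken by symbol from the deposited gene tables, 8 of 60683 genes, and 8 of 8 were among the 16173 genes with enough counts to be tested. The cells were MCF10DCIS.com, derived from MCF10A breast epithelium and grown to model early, non-invasive breast carcinoma. All cultures were seeded with 500000 cells and kept for 6 h before crystals were added. Libraries came from polyadenylated RNA of 5 crystal-treated groups and 1 untreated group. COM cultures received plates of calcium oxalate monohydrate. The other 4 forms were calcium oxalate dihydrate: dumbbells (DB), spheres (SPH), and bipyramids that were thick (TK) or thin (TN). The dose was 0.1 mg/mL for every form, each form had 4 libraries, and Control, the untreated group, had 7. No source used here gives the time between crystal addition and harvest, and a single cell line was used throughout.

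Fos and Jun proteins share a basic leucine zipper, through which a Fos protein pairs with a Jun protein, while Jun proteins can also pair with each other. FOS, FOSB, JUN and JUNB are immediate early genes, transcribed quickly and briefly after growth factors, serum or stress act through MAP kinases. FOSL1 (Fra-1) and FOSL2 (Fra-2) encode Fos-related proteins without the strong activation domain of FOS, and FOSL1 is known for its role in invasive breast and epithelial cancer cells. JUND is the more steadily expressed Jun gene, and BATF3 encodes a short zipper protein best known from dendritic cells.

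The libraries carry serial numbers that fall into 3 unbroken runs, and the runs bear on every value below. Run 1 held 2 libraries each of COM, DB, SPH, TN and Control. Run 2 held 1 library each of COM, DB, SPH and TN, all 4 TK libraries and 4 Control libraries. Run 3 held 1 library each of COM, DB, SPH, TN and Control. The labels do not say what a run is, so it is used here only as a number range, and TK can be compared with untreated cells directly only within run 2. Total counts ran from 13115669 to 38672521 per library, and mean fragment lengths from 197.6 to 319.1 nucleotides. The library TN C of run 2 had a mean fragment of 297.0 nucleotides, the longest of its run. Levels are given as CPM, the count of a gene scaled to the TMM-adjusted library total. The basal markers KRT5 (1990 to 3290 CPM) and TP63 (85.6 to 142 CPM) were present in every library, while of 6 leukocyte markers PTPRC was at 0 in 20 and CD3E in 23 of 27 libraries. The myeloid markers CD14 (1.68 to 7.73 CPM) and CD68 (3.31 to 21.1 CPM) were detected in every library, and CD79A reached at most 0.464 CPM. LYZ reached 58.6 CPM in TN B, where the 6 markers summed to 71.6 CPM, against at most 21.4 CPM in Control libraries, and their part in the results was not tested. The library TN B held liver transcripts, with 6 hepatocyte markers summing to 886 CPM, against at most 16.5 in Control libraries. TN B is kept below, and the TN values without it are given with the results.

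The promoters of FOS, FOSB and JUN are shown, since these 3 genes were called lower with 3 or more of the 5 crystal forms. The sequences are the 150 bases before the RefSeq start of each gene (GRCh38.p14), read 5' to 3' on the strand of the gene. FOS is shown at chr14:75278678-75278827 on the plus strand, FOSB at chr19:45467846-45467995 on the plus strand and JUN at chr1:58784048-58784197 on the minus strand. Capitals mark the core of a cAMP response element, TGACGT, in FOS and FOSB, and the related sequence TGACATCA in JUN.
FOS: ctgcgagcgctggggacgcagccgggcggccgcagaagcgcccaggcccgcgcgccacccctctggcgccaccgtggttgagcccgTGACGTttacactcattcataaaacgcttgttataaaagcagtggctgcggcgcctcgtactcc
FOSB: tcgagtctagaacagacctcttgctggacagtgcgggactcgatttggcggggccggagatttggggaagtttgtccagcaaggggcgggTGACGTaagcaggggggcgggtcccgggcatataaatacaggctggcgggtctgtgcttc
JUN: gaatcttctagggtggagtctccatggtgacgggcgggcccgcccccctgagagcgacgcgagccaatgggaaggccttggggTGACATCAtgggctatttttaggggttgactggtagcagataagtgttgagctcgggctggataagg
The core TGACGT began at position -64 of FOS, -60 of FOSB and -66 of FOSL2, counted from the base before the RefSeq start as -1. JUN held TGACATCA at -67. RefSeq and GENCODE 29 place the start of FOS, JUN and FOSL2 differently. The window of FOS thus lies partly, and those of JUN and FOSL2 wholly, inside the gene bounds given below. Both strands were searched over the 250 bases before the start, and 6 of 8 genes had a promoter sequence there: FOS, FOSB, FOSL2, JUN, JUNB and JUND. TGACGT was also in JUND, at -87 and within the full palindrome TGACGTCA at -200. Of 35116 promoters, 7.1% held TGACGT, 2.37% held TGACATCA and 1.65% held TGACGTCA. The AP-1 site TGACTCA, in 4.2% of promoters, was in none of the 6 windows before the start, but FOSL2 has it at position 5 counted from the start. Only these exact letters were counted as that site, so other forms of an AP-1 site may be present. A TATAAA box, in 10.72% of promoters, stood at -33 in FOS, -30 in FOSB and -31 in JUNB. No match to the CArG box bound by SRF, which 1.16% of promoters hold, was found in these windows of 250 bases. Sequence further upstream was not searched, so a CArG box may lie there. These matches are letters in a window and show no binding.

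FOS, FOSB and JUN were lower than in untreated cells with 3 or more of the 5 crystal forms, and FOSL1 was higher with 3. FOS fell most with the bipyramids TK and TN. FOSB was called lower with every form except SPH, and JUN was called lower with COM, TK and TN. With SPH no AP-1 subunit passed the test. Changes are log2 fold changes of a form over Control, with the standard error (SE) of an edgeR quasi-likelihood model that holds group and run. A gene is called where its p, adjusted by Benjamini-Hochberg over all 16173 genes, is under 0.05. In bulk RNA, fewer cells with a transcript and less transcript per cell cannot be told apart. Whether the libraries of one group stem from separate cultures is not in the labels, so the p-values measure the spread between these libraries, which may be technical.

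**Figure D1:**
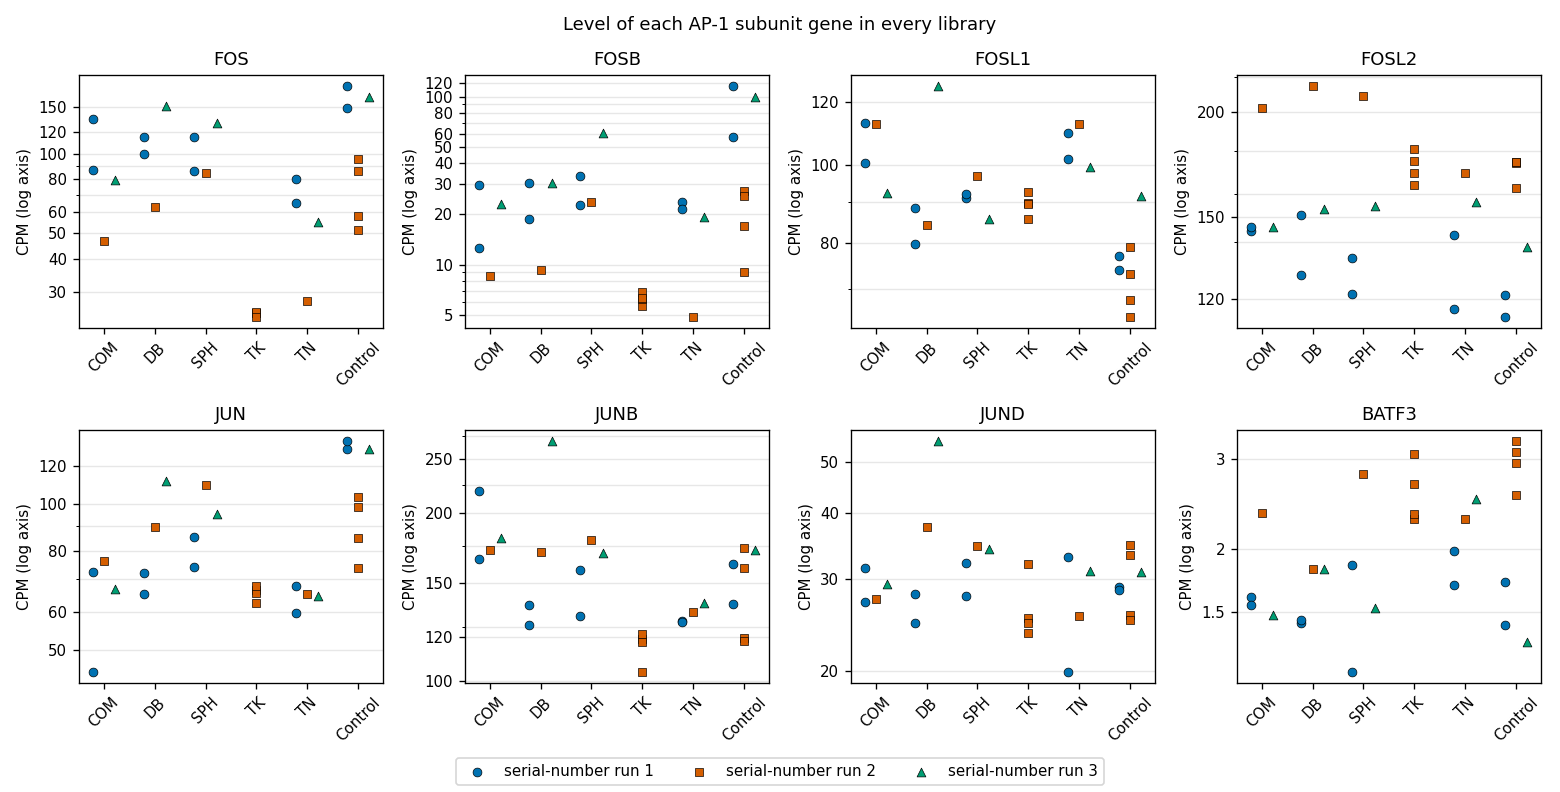
Level of each AP-1 subunit gene in CPM (log axes) in every library, by group, with the serial-number run as colour and symbol. The 4 TK libraries sit between 24.32 and 25.24 for FOS, below all Control libraries, and untreated FOS and FOSB are lower in run 2 than in runs 1 and 3.

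FOS, on chromosome 14 (75278774 to 75282230, GRCh38, GENCODE 29), encodes the founding member of the Fos family. Its level was 25.10, 25.08, 25.24 and 24.32 CPM in the 4 TK libraries, all of run 2. TN libraries had 80.09 and 65.34 CPM in run 1, 27.80 CPM in run 2 and 55.02 CPM in run 3. The TK libraries were nearly equal, and TN C of the same run was close to them. COM libraries had 135.3 and 86.47 CPM in run 1, 46.89 CPM in run 2 and 79.63 CPM in run 3. DB libraries had 115.6 and 99.17 CPM in run 1, 62.84 CPM in run 2 and 150.4 CPM in run 3. SPH libraries had 115.5 and 85.67 CPM in run 1, 84.10 CPM in run 2 and 130.8 CPM in run 3. Each of these forms was lowest in run 2. Control libraries had 148.0 and 179.0 CPM in run 1, 51.58, 95.51, 86.05 and 58.23 CPM in run 2 and 162.6 CPM in run 3. In each run the COM, TK and TN libraries lay below every Control library, and of the other forms only DB C and SPH C of run 2 reached into the Control range. Over all forms, 18 of 20 crystal libraries were below every Control library of their run, and 0.872% of all genes tested had as many below.

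In the model with run, FOS fell by 1.62 with TK (SE 0.20, edgeR adjusted p = 9.34e-06) and by 1.25 with TN (SE 0.18, adjusted p = 8.43e-05) on the log2 scale. It fell by 0.63 with COM (SE 0.18, adjusted p = 0.0321). The values for DB (-0.32, SE 0.18, adjusted p = 0.261) and SPH (-0.30, SE 0.17, adjusted p = 0.853) were not called. Within run 2 alone, FOS changed by -1.54 with TK (adjusted p = 5.61e-05) and -1.38 with TN (adjusted p = 0.0171). Within run 1 it changed by -1.17 with TN (adjusted p = 0.00366) and by -0.55 with COM (adjusted p = 0.233). In run 3, with 1 library per group, the values were -1.56 for TN, -1.03 for COM, -0.31 for SPH and -0.11 for DB, none of them called. The sign was negative for every form in every run except SPH in run 2 (0.21, adjusted p = 0.931). Without the library TN B the TN value was -1.26 (adjusted p = 0.000361). The COM call was lost without Control B (-0.57, adjusted p = 0.0767), Control G (-0.61), COM B (-0.57), COM C (-0.61) or COM D (-0.53). A model without the run gave -0.97 for TN (adjusted p = 0.0806) and -0.36 for COM (adjusted p = 0.591), so these calls depend on the run being in the model.

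FOSB, on chromosome 19 (45467995 to 45475179), encodes the Fos protein closest to FOS, and of the 8 genes it had the largest log2 change with each of the 5 forms. Its level was 5.706, 6.269, 6.926 and 6.308 CPM in TK libraries of run 2. TN had 23.63 and 21.35 CPM in run 1, 4.910 CPM in run 2 and 19.13 CPM in run 3. TK and TN C were thus at similar levels in run 2. COM had 29.62 and 12.50 CPM in run 1, 8.592 CPM in run 2 and 23.03 CPM in run 3. DB had 30.47 and 18.65 CPM in run 1, 9.360 CPM in run 2 and 30.77 CPM in run 3. SPH had 33.74 and 22.55 CPM in run 1, 23.46 CPM in run 2 and 60.69 CPM in run 3, the highest crystal library for this gene. Control had 57.23 and 115.1 CPM in run 1, 9.030, 27.26, 25.74 and 16.94 CPM in run 2 and 99.98 CPM in run 3. COM, TK and TN libraries lay below every Control library of their run, COM C by a narrow margin, and DB C and SPH C lay inside the Control range of run 2. As for FOS, 18 of 20 crystal libraries were below all Control libraries of their run.

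On the log2 scale FOSB fell by 1.70 with COM (SE 0.30, edgeR adjusted p = 0.000836), by 1.48 with DB (SE 0.30, adjusted p = 0.00244), by 1.89 with TK (SE 0.35, adjusted p = 0.000697) and by 1.89 with TN (SE 0.30, adjusted p = 0.000235). The SPH value was -0.73 (SE 0.29, adjusted p = 0.661). Within run 1 the values were -1.98 for COM, -1.81 for DB and -1.94 for TN, all called, and -1.61 for SPH, not called (adjusted p = 0.304). Within run 2 they were -1.63 for TK (adjusted p = 0.0052) and -1.99 for TN (adjusted p = 0.0497), while COM (-1.18), DB (-1.06) and SPH (0.27) were not called. Run 3 gave -2.12 for COM, -1.70 for DB, -0.72 for SPH and -2.39 for TN, none called with 1 library per group. Leaving out any 1 library kept the calls for COM, DB, TK and TN. Without the run in the model only the TK value was called, and COM (-1.44, adjusted p = 0.148), DB (-1.16, adjusted p = 0.187) and TN (-1.55, adjusted p = 0.099) were not. All TK libraries are of run 2, where untreated FOSB was lower than in run 1 (log2 difference -2.145). Without the run in the model, that difference and the TK effect cannot be told apart. FOSB overlaps ERCC1 on the opposite strand, and since the strand setting of the counting is not given, reads of the 2 genes cannot be told apart where they overlap.

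FOSL1, on chromosome 11 (65892049 to 65900573), encodes Fra-1 and was higher with COM, DB and TN. Its level was 100.6 and 112.9 CPM in COM libraries of run 1, 112.8 CPM in run 2 and 92.26 CPM in run 3. DB had 79.82 and 88.44 CPM in run 1, 84.30 CPM in run 2 and 125.6 CPM in run 3. SPH had 90.90 and 91.96 CPM in run 1, 97.00 CPM in run 2 and 85.75 CPM in run 3. DB D was the highest library of the series for this gene. TK had 89.78, 92.71, 85.71 and 89.38 CPM in run 2. TN had 109.9 and 101.9 CPM in run 1, 112.7 CPM in run 2 and 99.60 CPM in run 3. Control had 76.98 and 73.96 CPM in run 1, 67.83, 64.64, 78.93 and 73.05 CPM in run 2 and 91.46 CPM in run 3. COM, DB, TK and TN libraries lay above every Control library of their run, COM D by less than 1 CPM, and only SPH D lay below. That made 19 of 20 crystal libraries above, and 1.03% of genes tested had as many above. FOSL1 rose by 0.47 with COM (SE 0.10, edgeR adjusted p = 0.00277), 0.49 with TN (SE 0.09, adjusted p = 0.00137) and 0.31 with DB (SE 0.10, adjusted p = 0.0366) on the log2 scale. The SPH value was 0.28 (adjusted p = 0.532). The TK value was 0.27 (SE 0.10, adjusted p = 0.069) over all libraries and 0.33 (adjusted p = 0.00378) within run 2, where it was called. COM (0.50) and TN (0.49) were called within run 1, and COM (0.67) and TN (0.66) within run 2. The DB values of 0.16 in run 1 (adjusted p = 0.454) and 0.24 in run 2 (adjusted p = 0.499) were not called. In run 3 no form was called, with DB at 0.46 (adjusted p = 0.0779), COM at 0.01, SPH at -0.09 and TN at 0.12, beside an untreated level above that of the other runs. The DB call depended on DB D, the highest library, and without it the value was 0.16 (adjusted p = 0.296). It was also lost without Control A (0.33), Control C (0.30), Control D (0.29), Control F (0.31) or DB B (0.34), with adjusted p of 0.0511 to 0.0594. The TK value passed without any 1 of Control G, COM C, COM D, DB D, TN C or TN D.

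FOSL2, on chromosome 2 (28392448 to 28417312), encodes Fra-2. It was 144.6 and 146.2 CPM in COM libraries of run 1, 202.1 CPM in run 2 and 146.1 CPM in run 3. DB had 128.0 and 151.0 CPM in run 1, 214.7 CPM in run 2 and 153.5 CPM in run 3. SPH ranged over 121.5 to 209.1 CPM, TK over 163.7 to 180.7 CPM and TN over 116.5 to 169.2 CPM. The run 2 library was the highest of each of COM, DB, SPH and TN. Control had 114.2 and 121.1 CPM in run 1, 162.4 to 174.7 CPM in run 2 and 138.4 CPM in run 3. Every COM, DB and SPH library was above all Control libraries of its run, while TK overlapped them. Of 20 crystal libraries 16 were above, and 4.92% of genes tested had as many above. FOSL2 rose by 0.24 with COM (SE 0.07, edgeR adjusted p = 0.0307) and by 0.25 with DB (SE 0.07, adjusted p = 0.0193) on the log2 scale. The values were 0.18 for SPH (adjusted p = 0.604), 0.12 for TN (adjusted p = 0.281) and 0.00 for TK (adjusted p = 0.992). No form was called within a single run. The DB call was lost without DB B (0.22, adjusted p = 0.0809) or DB C (0.22, adjusted p = 0.0736). The COM call was lost without Control A or C, COM A, B or C, SPH C or TK A, at 0.22 to 0.23. FOSL2 overlaps the antisense gene FLJ31356, whose reads cannot be told apart without a strand setting.

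**Figure D2:**
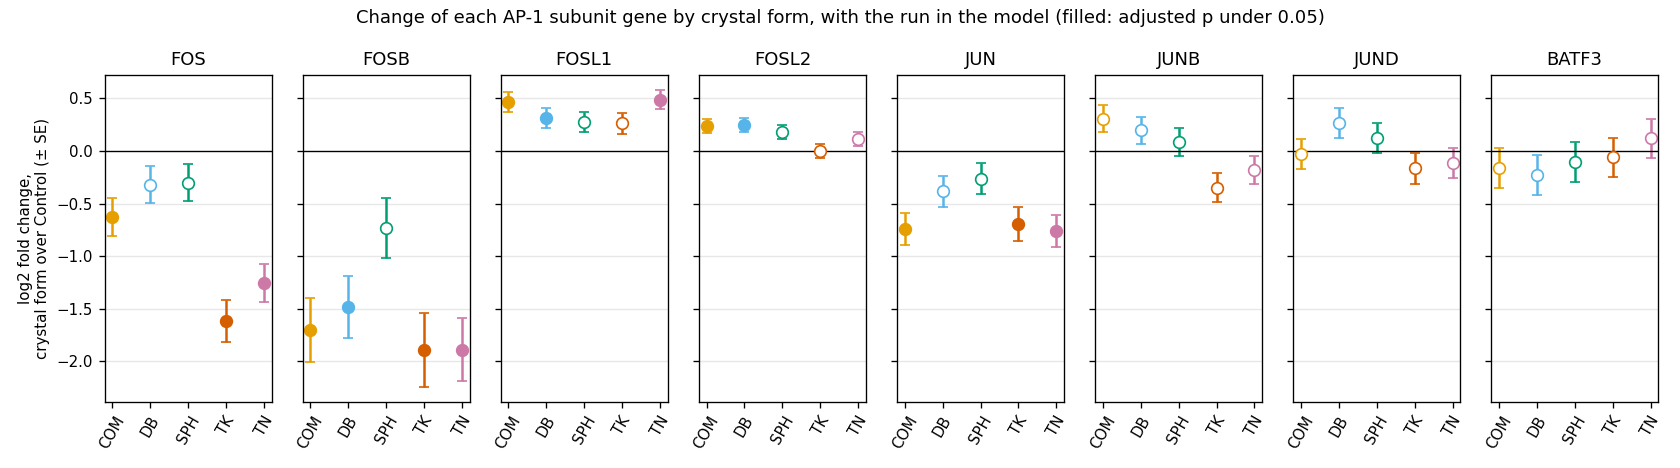
Change of each AP-1 subunit gene with each crystal form, as log2 fold change over Control with SE bars, from the model with group and run over 27 libraries. Filled points have an adjusted p under 0.05: FOS, FOSB and JUN lie below 0 with TK and TN, and FOSL1 lies above 0 with COM, DB and TN.

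JUN, on chromosome 1 (58780788 to 58784327), encodes the main partner of Fos proteins. It was 66.49, 65.53, 67.88 and 62.37 CPM in TK libraries of run 2. TN had 59.61 and 67.81 CPM in run 1, 65.29 CPM in run 2 and 64.66 CPM in run 3. These 8 libraries spanned a narrow band. COM had 72.45 and 45.10 CPM in run 1, 76.25 CPM in run 2 and 66.85 CPM in run 3. DB had 65.30 and 72.10 CPM in run 1, 89.72 CPM in run 2 and 111.3 CPM in run 3. SPH had 85.56 and 74.04 CPM in run 1, 109.4 CPM in run 2 and 95.23 CPM in run 3, so COM B was the lowest crystal library and DB D the highest. Control had 130.0 and 134.7 CPM in run 1, 73.73, 103.5, 98.59 and 85.22 CPM in run 2 and 129.8 CPM in run 3. TK and TN libraries were below all Control libraries of their run. COM C and DB C lay among the Control libraries of run 2 and SPH C above them, so that 17 of 20 crystal libraries were below, and 1.68% of genes tested had as many below. JUN fell by 0.74 with COM (SE 0.15, edgeR adjusted p = 0.00331), 0.69 with TK (SE 0.16, adjusted p = 0.00424) and 0.76 with TN (SE 0.15, adjusted p = 0.00178) on the log2 scale, and no single library ended these calls. The DB value was -0.39 (adjusted p = 0.103), but it was called without Control C (-0.45, adjusted p = 0.0468), and the SPH value was -0.26 (adjusted p = 0.841). Within run 1, JUN changed by -1.16 with COM, -0.95 with DB and -1.05 with TN, all called. Within run 2 the values were -0.46 with TK (adjusted p = 0.0174) and -0.47 with TN (adjusted p = 0.16), beside -0.24 with COM, -0.01 with DB and 0.28 with SPH. The effect in run 1 minus that in run 2 was -0.92 for COM, -0.94 for DB, -1.01 for SPH and -0.59 for TN, with adjusted p of 0.345 for COM, 0.393 for DB, 0.986 for SPH and 0.151 for TN. Each of these 4 differences was negative and had an unadjusted p under 0.05, and none passed after adjustment over all genes. All 4 use the same Control libraries of runs 1 and 2, so they are not independent of each other. The share of all genes with an unadjusted p under 0.05 was 7.43% for COM, 4.74% for DB, 4.6% for SPH and 24.3% for TN.

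**Figure D3:**
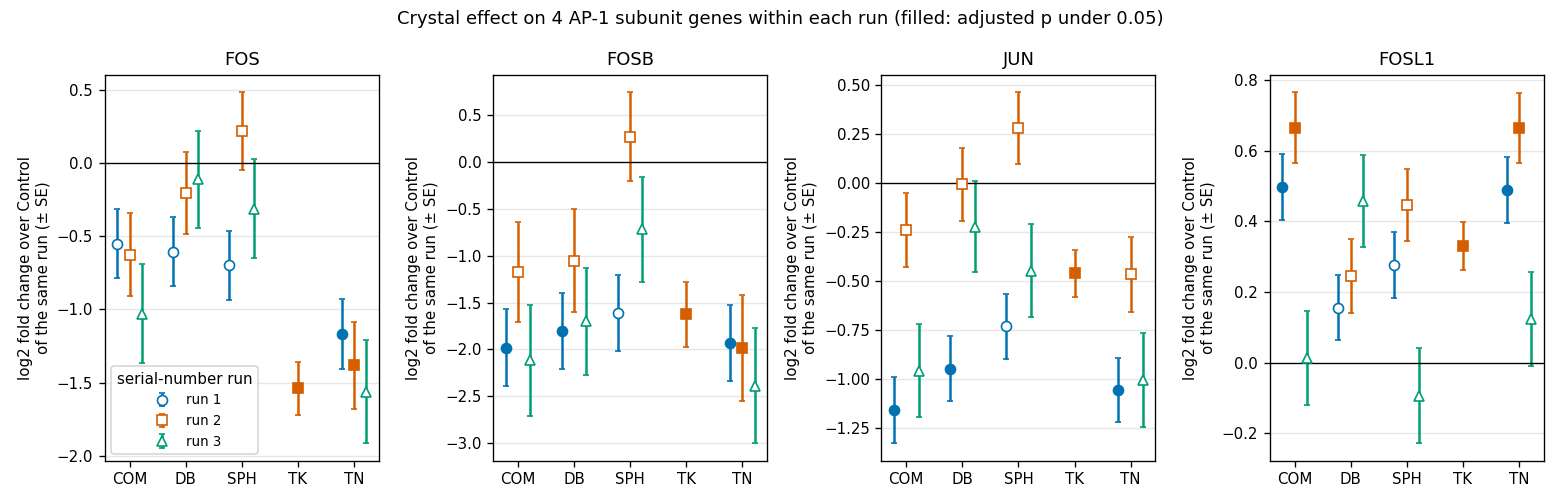
Change of FOS, FOSB, JUN and FOSL1 with each crystal form against the Control libraries of the same run, as log2 fold change with SE bars, filled where the adjusted p is under 0.05. TK has values in run 2 only, and with SPH the FOS, FOSB and JUN values are below 0 in runs 1 and 3 and above 0 in run 2.

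JUNB and JUND were not called with any form over all libraries or within a run. JUNB, on chromosome 19 (12791496 to 12793315), encodes a Jun protein that often opposes JUN. It ranged over 165.7 to 219.5 CPM in COM, 126.1 to 269.1 CPM in DB, 130.9 to 178.8 CPM in SPH, 104.0 to 121.7 CPM in TK, 127.6 to 138.2 CPM in TN and 118.2 to 173.2 CPM in Control libraries. The nearest to a call were a log2 change of -0.35 with TK (SE 0.14, edgeR adjusted p = 0.0888) and 0.31 with COM (SE 0.13, adjusted p = 0.177). Without DB D, which held the highest JUNB level, the TK value was -0.37 and called (adjusted p = 0.0268). JUNB overlaps HOOK2 on the opposite strand. JUND, on chromosome 19 (18279760 to 18281622), was 27.01 to 31.38 CPM in COM, 24.70 to 54.83 CPM in DB, 27.74 to 34.59 CPM in SPH, 23.65 to 32.02 CPM in TK, 19.93 to 32.99 CPM in TN and 25.03 to 34.78 CPM in Control libraries. Its log2 changes ran from -0.17 with TK to 0.26 with DB. DB D held the highest level of both genes. Against the Control libraries of the same run, DB gave -0.19 in run 1, 0.26 in run 2 and 0.65 in run 3 (adjusted p = 0.163) for JUNB. For JUND it gave -0.12 in run 1, 0.35 in run 2 and 0.83 in run 3 (adjusted p = 0.135). BATF3, on chromosome 1 (212686418 to 212699985), was at 1.147 to 3.253 CPM over all libraries, and its changes ran from -0.23 with DB to 0.12 with TN, none called. Within runs they ran from -0.69 with DB in run 2 to 0.93 with TN in run 3, none called.

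Of the 8 genes, 5 were called with COM (2 higher, 3 lower), 3 with DB (2 higher, 1 lower), 0 with SPH, 3 with TK (all lower) and 4 with TN (1 higher, 3 lower). Among all genes tested, 3.94% were higher and 2.42% lower with COM, 5.92% higher and 4.10% lower with DB, and 0.0804% higher and 0.0309% lower with SPH. With TK 8.04% were higher and 7.33% lower, and with TN 6.84% higher and 4.88% lower. With SPH 3 of the 8 had an unadjusted p under 0.05, as did 6.47% of all genes, and DESeq2 also called 0 of 8. The median log2 change of the 8 genes was -0.09 with COM, -0.01 with DB, -0.01 with SPH, -0.26 with TK and -0.15 with TN, while the median of all genes lay between -0.02 and 0.00. A joint test over the 6 groups called 6 of 8, all but JUND and BATF3, against 23.2% of all genes. Leaving out 1 library at a time gave 3 to 5 called genes for COM (3 without COM B or COM C), 1 to 3 for DB (1 without DB B), 3 to 5 for TK (5 without DB D) and 4 for TN. Within run 1, 3 of 8 were called with COM, 2 with DB, 0 with SPH and 4 with TN, where 4.09%, 2.10%, 0.0618% and 14.2% of all genes were. Within run 2, 1 was called with COM, 0 with DB, 0 with SPH, 4 with TK and 3 with TN, where 0.501%, 0.526%, 0.0556%, 12.5% and 5.05% of all genes were. Within run 3, at 1 library per group, 0 of 8 were called, where 0.0989% of all genes were with COM, 2.28% with DB, 0.00618% with SPH and 0.0989% with TN. For COM, DB, SPH and TN the form effect was also compared between run 1 and run 2 and between run 3 and run 1, and 0 of the 8 genes differed at the adjusted threshold. Between run 1 and run 2 the effect differed at 0.0247% of all genes for COM, 0.0866% for DB, 0% for SPH and 5.81% for TN, and between run 3 and run 1 at 0% for each form. Without TN B, 4 of 8 genes were called with TN, as with it, at -1.95 for FOSB, -0.81 for JUN and 0.50 for FOSL1. With mean fragment length as a covariate the DB call of FOSL1 was lost (0.24, adjusted p = 0.207).

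The shape of the dihydrate crystals was compared directly, the bipyramids TK and TN together against DB and SPH together. FOS was lower with the bipyramids by 1.12 on the log2 scale (SE 0.15, edgeR adjusted p = 1.34e-05), a call that no single library ended and that held within run 2 at -1.47 (adjusted p = 0.00301). In all, 6 of 8 genes were lower with the bipyramids, where 9.46% of all genes were lower. The others were FOSB (-0.78, adjusted p = 0.0293), JUN (-0.40, adjusted p = 0.0226), JUNB (-0.41, adjusted p = 0.00974), JUND (-0.33, adjusted p = 0.0473) and FOSL2 (-0.16, adjusted p = 0.0461). FOSL1 differed by 0.08 (SE 0.08, adjusted p = 0.506). These 5 calls rested on single libraries. Without SPH C only FOS was called, with FOSB at -0.52, JUN at -0.29, JUNB at -0.34, JUND at -0.30 and FOSL2 at -0.12. Without DB C, FOS and JUNB were called, and FOSB was -0.75, JUN -0.36, JUND -0.31 and FOSL2 -0.13. Leaving out TN D ended the calls of FOSB (-0.72), JUN (-0.36) and JUND (-0.32), while DB A or TK A ended that of FOSB (-0.72 and -0.76) and TN A those of JUN (-0.39) and JUND (-0.27). FOSL2 lost its call without any 1 of 18 libraries (-0.16 to -0.12) and JUND without any 1 of 16 (-0.34 to -0.24). Among these, leaving out TN B ended the FOSL2 call (-0.13). Within run 2, JUN (-0.60, adjusted p = 0.036) was the only further call, where 3.34% of all genes were called.

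None of the 8 genes was called between TK and TN, where 0.216% of all genes were called. FOS was 0.36 lower with TK than with TN on the log2 scale, with an SE of 0.23 (adjusted p = 0.615), and FOSL1 was 0.22 lower with an SE of 0.12 (adjusted p = 0.521). In this model with group and run none of the 8 had an unadjusted p under 0.05, as did 10.3% of all genes, and DESeq2 called 0 of 8 as well. Within run 2, the only run that holds both forms, 0 of 8 were called, where 5.40% of all genes were, and 1 of 8 had an unadjusted p under 0.05, as did 21.2% of all genes. That gene was FOSL1, 0.34 lower with TK than with TN C (SE 0.10, adjusted p = 0.0616). Ordered by its change against Control, FOS was lowest with TK (-1.62), followed by TN (-1.25), COM (-0.63), DB (-0.32) and SPH (-0.30). Neighbours in that order did not pass the test, with TN against COM at -0.62 (adjusted p = 0.058), COM against DB at -0.31 (adjusted p = 0.626) and DB against SPH at -0.02 (adjusted p = 0.98). FOS was called lower in TK than in COM (-0.99, adjusted p = 0.00386), DB (-1.29, adjusted p = 0.000312) and SPH (-1.31, adjusted p = 0.00096), and lower in TN than in DB (-0.93, adjusted p = 0.00369) and SPH (-0.95, adjusted p = 0.0158). The percentages of all genes called were 14.5% for TK against COM, 17.8% for TK against DB, 5.60% for TK against SPH, 10.3% for TN against DB and 1.27% for TN against SPH. JUNB was called lower in TK than in COM (-0.66) and DB (-0.54) and in TN than in COM (-0.49), where 5.03% of all genes were called. FOSL2 was called lower in TK than in COM (-0.24) and DB (-0.25). For FOSB no pair of forms was called, the widest gap being TK against SPH at -1.16 (SE 0.39, adjusted p = 0.076). COM against DB, COM against SPH and DB against SPH had no call among the 8, where 0.198%, 0.544% and 0.247% of all genes were called, and 1 to 2 of the 8 had an unadjusted p under 0.05 in each, as did 9.91%, 9.95% and 11.1% of all genes.

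Untreated cells themselves differed between runs. FOSB was 9.030 to 27.26 CPM in the 4 Control libraries of run 2, 57.23 and 115.1 CPM in run 1 and 99.98 CPM in run 3, without overlap. In untreated cells of run 2 against run 1, FOSB fell by 2.15 (SE 0.34, edgeR adjusted p = 0.000393), FOS by 1.17 (SE 0.20, adjusted p = 0.000759) and JUN by 0.56 (SE 0.14, adjusted p = 0.0129) on the log2 scale. FOSL2 rose by 0.54 (SE 0.09, adjusted p = 0.000492) and BATF3 by 0.92 (SE 0.24, adjusted p = 0.0147). These 5 of 8 compare with 13.9% of all genes. The calls of JUN and BATF3 were lost without Control A (-0.58 and 0.78) or Control B (-0.53 and 1.06). Run 2 against run 3 called 4 of 8, FOS (-1.17), FOSB (-2.36) and FOSL1 (-0.36) lower and BATF3 (1.17) higher, where 5.42% of all genes were called. Run 3 against run 1 called 0 of 8, where 0.0371% of all genes were called, with 1 of 8 at an unadjusted p under 0.05, as were 9.81% of all genes. The untreated difference of FOSB between run 2 and run 1 was larger in size than each crystal effect on FOSB called within a run (-1.99 to -1.63). Mean fragment length ran from 257.8 to 319.1 nucleotides in run 1, 197.6 to 297.0 in run 2 and 215.4 to 247.7 in run 3, and its part in the run difference was not tested.

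The make-up of the Fos family differed between the groups. Levels of different genes are compared here in the deposited TPM, which divides by transcript length before scaling to a fixed total. In TK libraries FOSL1 led the Fos family at 84.8 ± 6.93 TPM (SD, n = 4), above FOSL2 (35.0 ± 3.47 TPM) and FOS (25.4 ± 2.34 TPM), with FOSB at 2.91 ± 0.40 TPM. In the 4 Control libraries of the same run FOS was 69.1 ± 16.9 TPM and FOSL1 66.1 ± 6.96 TPM (SD, n = 4), close to each other, with FOS above FOSL1 in 2 of the 4, beside FOSL2 at 34.4 ± 3.52 TPM and FOSB at 9.28 ± 3.66 TPM. In runs 1 and 3 untreated FOS was above FOSL1 in every Control library, with means of 145.1 and 155.8 TPM for FOS and 64.2 and 80.76 TPM for FOSL1. FOSL1 made up 57.3% ± 0.40 of the Fos-family TPM in TK, 53.1% ± 7.80 in TN, 45.7% ± 6.65 in COM, 38.4% ± 3.29 in DB and 37.5% ± 5.41 in SPH (SD, n = 4 each), against 32.0% ± 7.76 in Control (SD, n = 7). Within run 2 the share was 56.8% to 57.7% in TK libraries, 64.6% in TN C and 53.3% in COM C, against 30.6% to 42.5% in Control libraries, and DB C (41.3%) and SPH C (39%) lay inside the Control range. Within run 1 the share was 37.7% to 48.2% in COM, 33.8% to 40.1% in DB, 38.0% to 42.9% in SPH and 47.5% to 50.6% in TN, against 21.2% to 27.4% in Control. Within run 3 it was 43.4% in COM, 38.3% in DB, 30% in SPH and 49.5% in TN, against 26.1% in Control, so that every crystal library of runs 1 and 3 was above the Control libraries of its run. There were 3.34 ± 0.08 FOSL1 transcripts per FOS transcript in TK, against 0.652 to 1.33 in Control libraries of run 2. In the same run this ratio was 5.065 in TN C, above TK, 2.239 in COM C, 1.218 in DB C and 1.027 in SPH C. The summed Fos-family level was 148 ± 12.8 TPM in TK and 168 ± 9.48 TPM in TN, against 223 ± 63.5 TPM in Control, or 179 ± 18.4 TPM in the 4 Control libraries of run 2. In the Jun family JUNB led in every group, at 92.5 ± 4.85 TPM in TK and 111 ± 13.2 TPM in Control. JUN made up 13.8% ± 2.59 of the Jun-family TPM in COM, 17.6% ± 1.88 in DB, 19.7% ± 1.11 in SPH, 19.4% ± 0.33 in TK and 17.1% ± 0.45 in TN (SD, n = 4 each), against 24% ± 3.18 in Control (SD, n = 7), or 21.9% ± 1.56 in the 4 Control libraries of run 2. The summed Jun-family level was 143 ± 3.24 TPM in TK and 140 ± 18.3 TPM in TN, against 177 ± 19.9 TPM in Control, or 168 ± 21.2 TPM in the Control libraries of run 2. These shares describe the same libraries as the tests above and were not tested on their own.

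**Figure D4:**
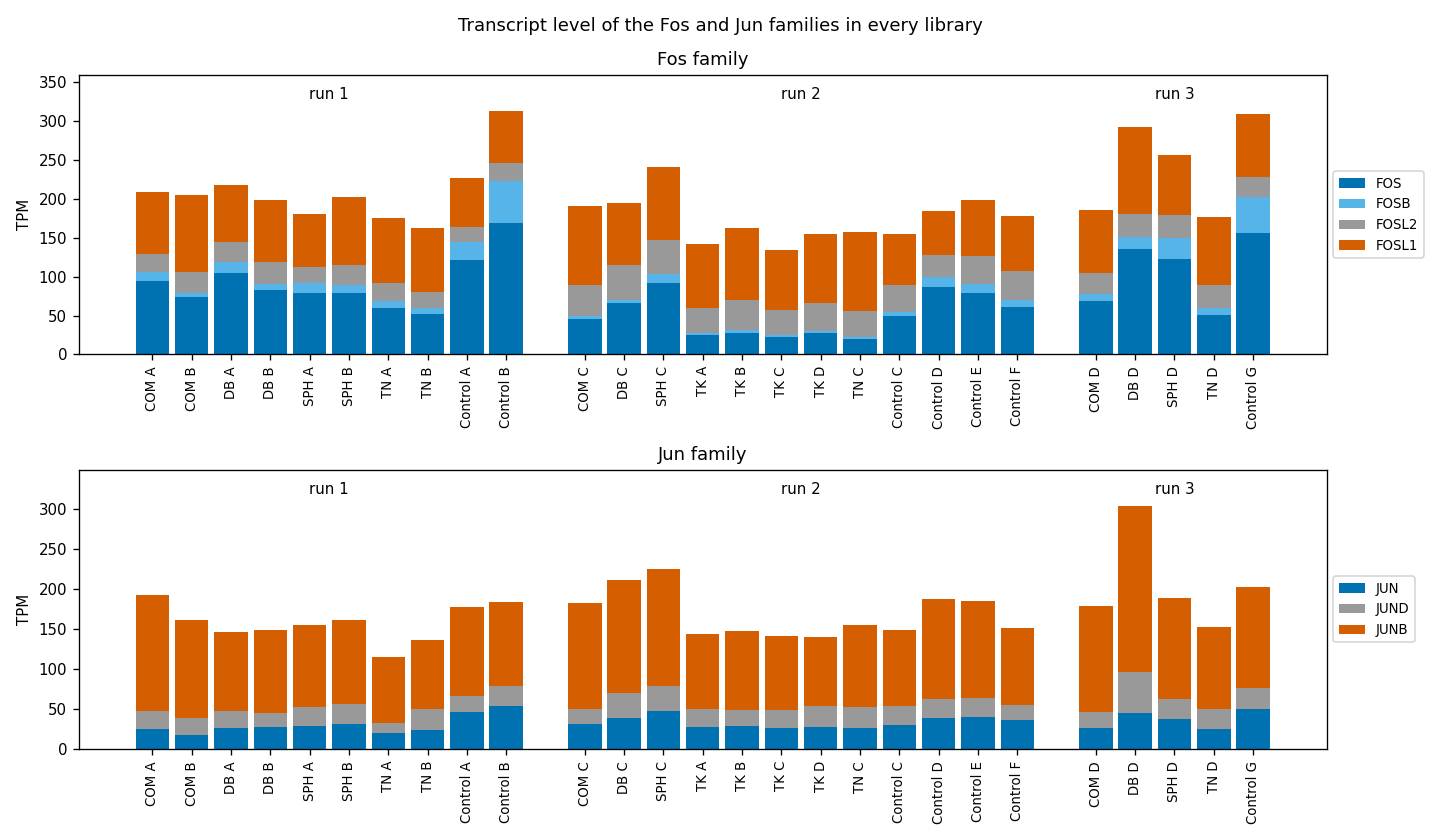
Transcript level in TPM of the Fos-family genes (upper bars) and Jun-family genes (lower bars), stacked, in every library by run. The FOS portion is smallest in the 4 TK libraries and TN C. FOSL1 is the largest portion of the Fos family there and also in other libraries, among them the untreated Control C and Control F.

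Genes around the AP-1 subunits were followed through 5 lists chosen with earlier results of these data known, so their counts are descriptions. For all 5 lists the shares of all genes called are 3.94% higher and 2.42% lower with COM, and 5.92% and 4.10% with DB. They are 0.0804% higher and 0.0309% lower with SPH, 8.04% and 7.33% with TK, and 6.84% and 4.88% with TN. Of 36 tested genes reported as AP-1 targets, 22 were higher and 0 lower with COM, 21 higher and 0 lower with DB, 1 higher with SPH, 9 higher and 9 lower with TK, and 11 higher and 4 lower with TN. The list median log2 change was 0.49 with COM, 0.50 with DB, 0.04 with SPH, 0.08 with TK and 0.00 with TN. PTGS2, the inducible cyclooxygenase, was higher with COM (1.72), DB (1.61), TK (1.38) and TN (1.58) on the log2 scale, each called by edgeR. Its level was 61.2 ± 16.1 CPM in COM, 55.1 ± 6.19 in DB, 50.1 ± 2.12 in TK and 55.4 ± 11.1 in TN (SD, n = 4 each), against 18.9 ± 3.85 CPM in Control (SD, n = 7), or 19.2 to 21.7 CPM in the 4 Control libraries of run 2. The collagenase gene MMP1 fell by 2.39 with TK (SE 0.37, adjusted p = 0.000121) and by 1.04 with TN (SE 0.28, adjusted p = 0.0162), but rose by 1.06 with DB (SE 0.26, adjusted p = 0.0106). The stromelysin gene MMP10 fell by 2.62 with TK (SE 0.45, adjusted p = 0.00029) and by 1.09 with TN (SE 0.28, adjusted p = 0.0113), but rose by 0.84 with COM (adjusted p = 0.0449) and by 1.04 with DB (adjusted p = 0.0105). Within run 2 its level was 0.748 ± 0.21 CPM in TK, against 4.08 ± 0.84 CPM in Control (SD, n = 4 each). TN C, the TN library of that run, had 4.25 CPM of MMP10, inside the Control range of 2.99 to 4.99 CPM. MMP1 in run 2 averaged 3.59 CPM in TK and was 16.7 CPM in TN C, against 14.25 to 19.8 CPM in Control. The falls with TN were thus not seen in run 2. Bipyramids against DB and SPH gave 17 lower of the 36, where 9.46% of all genes were lower. Another 4 were higher, among them the chemokine gene CCL2 (1.75). The share of all genes higher is not given here, so that count is a description only.

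Among 18 tested other immediate early genes, 2 were higher with COM, 4 with DB and 1 with SPH, none lower, while 4 were lower and 1 higher with TK, and 1 was lower and 1 higher with TN. EGR1, an early-response zinc finger gene, was 169 ± 10.6 CPM in TK and 182 ± 24.8 CPM in TN (SD, n = 4 each), against 299 ± 33.1 CPM in Control (SD, n = 7), or 289 ± 42.0 CPM in the 4 Control libraries of run 2. EGR1 fell by 0.86 with TK (SE 0.17, adjusted p = 0.00113) and by 0.69 with TN (SE 0.16, adjusted p = 0.00624), as FOS did. EGR3 went the other way with the other forms, rising by 0.67 with COM, 1.25 with DB and 0.97 with SPH (edgeR adjusted p = 0.00295, 1.1e-06 and 0.000949). KLF4 rose with COM (0.77), DB (0.73), TK (1.07) and TN (1.14). Of 17 phosphatases and other brakes of MAP kinase signalling, 4 were higher with COM and 4 with DB, 3 were lower with TK, and 3 were higher and 4 lower with TN. DUSP1, itself induced early, fell by 0.86 with TK (SE 0.24, adjusted p = 0.0146) and by 1.03 with TN (SE 0.21, adjusted p = 0.00233). DUSP6 and SPRY2, feedback inhibitors of ERK signalling, each fell by 0.49 with TK, while DUSP8 and DUSP10 rose with COM, DB and TN. Of 27 upstream kinases and activators, 3 were higher with COM and 7 with DB, 1 was lower with TK and 1 higher with TN. That was 3.7% of the list with TK, where 7.33% of all genes were lower, and 3.7% with TN, where 6.84% were higher. With SPH 0 of 17 brakes and 0 of 27 kinases were called by edgeR.

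Among 22 tested genes of other zipper proteins that can pair with Fos or Jun proteins or bind related sites, 7 were higher with COM, 11 with DB, 1 with SPH, 2 with TK and 6 with TN, and 1 with TK and 2 with TN were lower. ATF3, a stress-induced partner of Jun proteins, rose by 0.76 with COM, 0.72 with DB, 0.66 with TK and 0.77 with TN on the log2 scale, each called by edgeR. JDP2, which encodes a repressor that pairs with JUN, was 17.1 ± 1.73 CPM in TK and 15 ± 1.34 CPM in TN (SD, n = 4 each), against 10.1 ± 3.71 CPM in Control (SD, n = 7), or 11.7 to 14.8 CPM in the 4 Control libraries of run 2, and rose by 0.54 with TK and 0.91 with TN. DDIT3 (CHOP), a stress gene, rose by 1.34 with COM, 1.20 with DB, 0.87 with SPH (adjusted p = 0.0482) and 1.19 with TN. MAF fell by 0.68 with TK and 0.43 with TN.

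**Figure D5:**
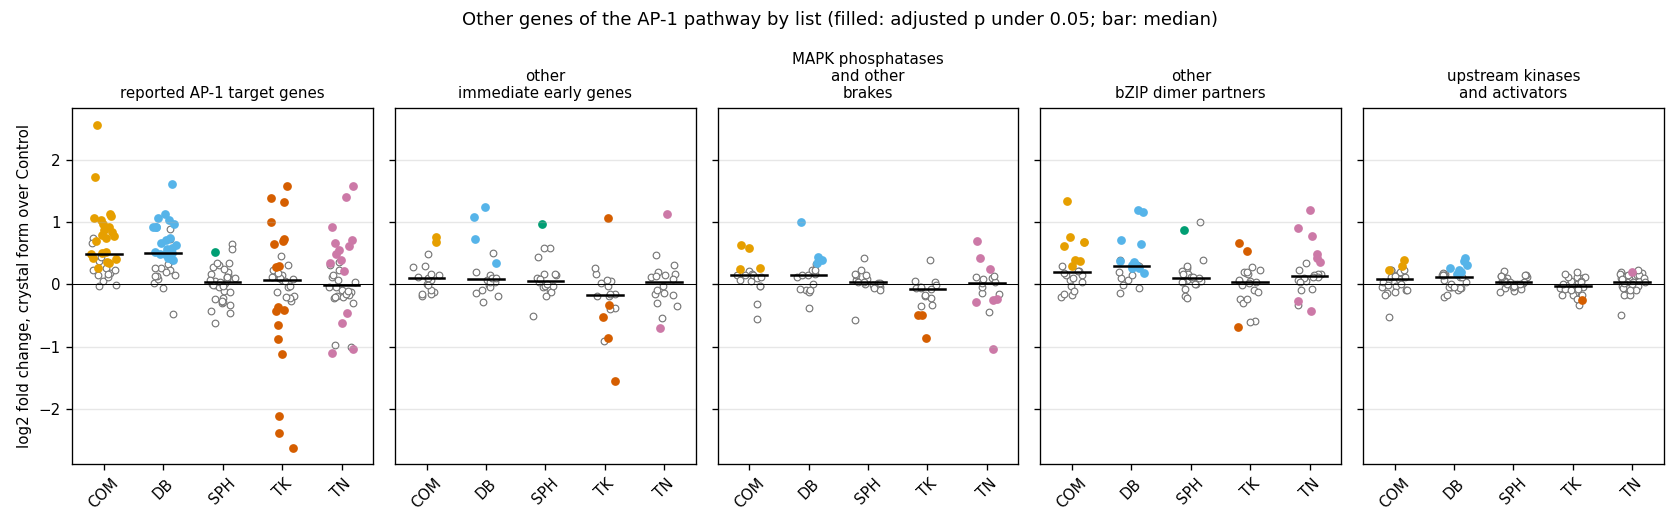
Log2 fold change over Control of every tested gene in 5 lists around AP-1, by crystal form, from the model with group and run; filled points have an adjusted p under 0.05 and bars are list medians. The target genes lie mostly above 0 with COM and DB and spread to both sides with TK and TN.

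The genes whose levels followed each subunit most closely were taken from 10943 candidates by Pearson r of log2 CPM over 27 libraries, each library centred on the mean of its run. Libraries share groups and depth, so these r are descriptions, and for several genes they depend on the centring. KLC4 (0.86), GBA2 (0.85) and FAIM2 (0.85) were most like FOS, and AKAP17A (0.78), PRPF3 (0.78) and NES (0.77) most like FOSB. Without centring on the run, r with FOSB was 0.44 for AKAP17A, 0.02 for PRPF3 and -0.17 for NES, and r with FOS was 0.81 for KLC4, 0.51 for GBA2 and 0.65 for FAIM2. LRRC8D (0.84), CDC42EP1 (0.84) and NFE2L2 (0.83), the gene of the NRF2 stress regulator, were most like FOSL1, and NUAK1 (0.82) led for FOSL2. Without centring these were 0.34 for LRRC8D, 0.79 for CDC42EP1, 0.50 for NFE2L2 and 0.47 for NUAK1. JUN was followed most closely by DUSP1 (0.82), PRPF3 (0.81) and SOX4 (0.80). STARD10 (0.84) led for JUNB, CEBPB (0.91) and NR2F6 (0.90) for JUND, and ASL (0.72) for BATF3, and of these 7 values those without centring ran from 0.36 (ASL) to 0.88 (STARD10).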

How the data were processed

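Each library has 1 deposited table with a row per gene. Per the file headers, the authors deposited expected counts, TPM and gene lengths with effective lengths. Per the submitters' processing notes, the tools were RSEM, Bowtie2 and Trim Galore, with build GRCh38. No source used here gives their versions, the annotation release, the strand setting or a read filter. RSEM divides reads that fit several genes, so an expected count need not be whole, and it was rounded here. Expected counts were used for tests and CPM, the deposited TPM for comparing genes, and lengths (length minus effective length plus 1, genes over 3000 bases) for mean fragment length.

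The count model was edgeR 4.0.16 under R 4.3.3: filterByExpr on the 6 groups, TMM scaling, and a quasi-likelihood fit over 27 libraries with group and run, called at an adjusted p of 0.05. Within-run values come from a model with a mean per group and run, in which a group of 1 library is assumed to vary like the others. The fit was tested on simulated data, in counts drawn with known changes. DESeq2 1.42.0 and other settings were alternatives. The runs are ranges of the serial numbers in the deposited names. The members, lists and tests were chosen with earlier results of these data known. Named genes are the 8 members, up to 3 called genes per list, comparison and direction with the largest change, and the 3 most similar genes per member (mean of at least 5 CPM, prior count 2). Coordinates are those of GENCODE 29, and promoters those of RefSeq. A check for repeat deposits of the same library found none (chi-square per degree of freedom at least 2.387 over 51 pairs of replicates). Depth was 13115669 to 38672521 counts per library.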

Additional observations from a re-analysis of the deposited data

Results flagged for a closer look

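In 48 sets of 4 to 7 libraries (8 genes in 6 groups) the highest and lowest libraries were compared with the rest by Dixon's gap test, which picks out about 1 in 20 such sets by chance, and in 2 of them a library stood apart. FOSL2 was 202.1 CPM in COM C, while the next COM library had 146.2 CPM. BATF3 was 2.35 CPM in COM C, while the next COM library had 1.61 CPM. COM C is the only COM library of run 2, and untreated cells of run 2 also had more FOSL2 and BATF3 than those of run 1. The part of the run in these gaps was not tested.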

How the results depend on the processing

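Over 977 alternative values of 36 called values, 823 kept direction and call, 148 kept direction only and 6 turned. Of 60 same-letter pairs of libraries 27 correlated above 0.1 in their deviation from the group mean (-0.158 to 0.446), 22 of them among the 30 pairs of letters A to C without TK. All 4 letters passed in 1 of 15 pairs of groups (COM with SPH), where same-letter libraries also share a run. With group and run taken out, 3 of 60 passed (-0.37 to 0.143) and 0 of 15. In COM, DB, SPH and TN, letter C lies only in run 2 and letter D only in run 3. Taking out the run thus also takes out most of what these letters share, so this cannot decide whether letters pair libraries. The main model does not pair libraries by letter. A fit with the letter as a replicate block beside the run was added after seeing the data. In it the called AP-1 subunits were 3 for COM, 0 for DB, 1 for TK and 2 for the bipyramids against DB and SPH. Over all pairs of groups 18 calls were lost with 0 turned. That setting gave 28 genes for COM against SPH (88 without it). Its shares of all genes for the other comparisons, and the subunits that kept a call, are not given here, so these counts are descriptions. With the letter as a replicate block in place of the run, the called AP-1 subunits were 2 for COM, 1 for DB and 1 for TK against TN (FOS, -1.08, adjusted p = 0.018). With no run term they were 2 for COM, 1 for DB and 2 for TN. With no filter on low counts DB had 6, TK 5, SPH 1 and TK against TN 1. Within run 1, 3 were called for COM. Within run 2 there were 1 for COM, 0 for DB and 2 for the bipyramids against DB and SPH, and within run 3 there were 0 for COM, DB and TN. Leaving out 1 library gave 3 to 5 for COM, 1 to 3 for DB, 3 to 5 for TK, 1 to 6 for the bipyramids against DB and SPH and 3 to 5 for untreated run 2 against run 1. Signs were followed for the 80 values called or at least 1.5 SE from 0. Of 104 within-run values against Control 17 had the opposite sign to the value over all libraries, none of them called, and 11 of the 17 belong to values under 1.5 SE, mostly of JUNB, JUND and BATF3. The other 6 were JUND with DB (-0.12 in run 1), FOS (0.21), FOSB (0.27) and JUN (0.28) with SPH in run 2, FOSL1 with SPH (-0.093 in run 3) and FOSL2 with TN (-0.019 in run 2). FOSL2 gave -0.05 for TN with no run term. For TK and TN against DB and SPH it gave 0.004 with no run term and 0.032 with the replicate block. For TK it gave 0.107 and 0.135 against COM, 0.091 and 0.127 against DB, and 0.154 and 0.195 against SPH in these 2 settings. Counting TN C with run 1, chosen after seeing the data like the further pairs of forms, gave FOSL2 0.028 for TN against COM and 0.019 for TN against DB, and ended the FOS call with COM (adjusted p = 0.0957). The causes were not tested. Over all genes, calls with no run term were 543 for COM (1029 with it), 915 for DB (1620), 7 for SPH (18) and 695 for TN (1896), and with the replicate block 367 for COM, 409 for DB, 2 for SPH, 396 for TN and 834 for TK against TN (35). No filter gave 136 for SPH and 375 for TK against TN, DESeq2 gave 41 and 131, and fragment length as covariate gave 709 for DB and 55 for TK against TN. TK against TN had 78 with TN C counted with run 1 and 20 with DESeq2 size factors. Leaving out 1 library gave 531 (without COM B) to 1135 for COM, 760 (without DB D) to 1995 for DB, 3 (without SPH C) to 29 (without DB D) for SPH, 1607 (without TK C) to 2664 for TK, 745 (without TN A) to 2213 for TN, 1974 (without TN A) to 3896 for the bipyramids against DB and SPH, 7 (without TK C) to 70 (without TN C) for TK against TN and 940 (without Control B) to 1959 for untreated run 2 against run 1 (2253). Scaling by DESeq2 size factors ended 1 call, upper-quartile scaling and DESeq2 ended 0. In run 3, 1 library per group limits what can be called.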
